A study of Mus musculus with 20 samples.

Results

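Pan2, Pan3, Parn, Pabpc1, Pabpc4 and Pabpn1 encode the PAN2-PAN3 deadenylase, the deadenylase PARN and the main cytoplasmic and nuclear proteins that coat poly(A) tails. They were taken by gene symbol from the deposited count tables, 6 of 37991 genes, and all 6 passed the filter on low counts. Their mRNAs were followed in mouse embryonic stem cells (ESCs) from which Cnot3, a non-catalytic subunit of the CCR4-NOT deadenylase complex, was removed by induction. KO denotes Cnot3 conditional knockout ESCs given 0.1 µM 4-hydroxytamoxifen, the inducer of recombination, and WT denotes DMSO-treated cells, by the study's design text the same conditional cells. There were 10 groups of 2 biological replicates: KO and WT total RNA and KO and WT polysome RNA on day 3 of treatment, and KO and WT cells that on day 2 received 10 µg/ml actinomycin D, which blocks transcription, and were collected after 0, 4 and 8 h. All samples are labelled as strain C57BL/6. The source label of all actinomycin D samples names the conditional cells, so both of those arms carry the conditional Cnot3 allele. That of the WT total and polysome samples reads E14Tg2a ESCs, and the labels leave unclear whether the day 3 WT arm carries that allele and whether both day 3 arms were a single line. No source used here gives the recombinase, its promoter or the number of clones.

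The poly(A) tail of an mRNA is coated in the cytoplasm by PABPC proteins, which help translation and contact the deadenylases that shorten the tail. In mammals PAN2-PAN3 is known for the first, slower trimming of long tails, and CCR4-NOT for the trimming that leads to decapping and decay. PARN acts on many noncoding RNAs and on some mRNAs, and PABPN1 controls tail length in the nucleus.

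All positions are from GENCODE M21 on GRCm38, whereas the reads were aligned to mm9. Pan2 (ENSMUSG00000005682) lies on the + strand at chr10:128303335-128321358. Pan3 (ENSMUSG00000029647) lies on the + strand at chr5:147430161-147548502. Parn (ENSMUSG00000022685) lies on the - strand at chr16:13537960-13668170. Pabpc1 (ENSMUSG00000022283) lies on the - strand at chr15:36595661-36609668. Pabpc4 (ENSMUSG00000011257) lies on the + strand at chr4:123262351-123298925. Pabpn1 (ENSMUSG00000022194) lies on the + strand at chr14:54892500-54898169, and 651 of its 3035 exonic bases are shared on the same strand with the protein-coding gene Gm20521. Gm20521 had 0 counts over all 20 libraries, and whether reads in the shared bases were left uncounted was not tested.

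Pabpc1 mRNA is a textbook 5′ TOP mRNA, one that starts with a C and a run of pyrimidines through which its translation follows growth signals, and it carries an A-rich stretch in its 5′ UTR that PABPC1 itself binds to repress its translation. Shown are the starts of the Pabpc1 and Pan3 transcripts and the most A-rich 30-base windows of the Pabpc1 and Pabpc4 5′ UTRs. They were chosen because in the transcripts read both cytoplasmic PABPs have an A-rich window but differ in their starts, as Pan3 and Pan2 do. The sequences are read 5′ to 3′ from the longest coding GENCODE M21 transcript of each gene. Capitals mark the leading pyrimidines in the starts and every A in the windows.
Pabpc1 start: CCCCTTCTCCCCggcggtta
Pan3 start: CTCCCCgggcggctccggct
Pabpc1 A-rich window: gAAAAAAcccAAAAAAAAtttAcAAAAAAA
Pabpc4 A-rich window: tAAAAAAAAAAAAAAgAAAAgAAAAgAAgA
Pabpc1 began with 12 pyrimidines and Pan3 with 6, while Parn, Pabpc4 and Pabpn1 began with a purine and Pan2 with 2 pyrimidines. A start of C followed by at least 4 pyrimidines, read on the transcript strand alone, was held by 2.32% of 20187 coding genes. It was held by 11 of 82 cytosolic ribosomal protein genes, a class known for TOP mRNAs. Starts read this way thus miss many TOP starts, and the lack of one in a member does not show that its mRNA lacks it. The Pabpc1 window held 22 A of 30 bases, at transcript bases 105 to 134, and the Pabpc4 window 25 A, at bases 67 to 96. Of 18466 genes with a 5′ UTR of at least 30 bases, 164 (0.888%) had a window with 22 A or more, and the median was 10. Pan2 reached 11 A, Parn 5 and Pan3 3. A match is a description of these letters and not of a bound site.

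Libraries held 27664391 to 35170012 gene counts in total RNA, 13832829 to 16688555 in polysomes and 14513891 to 33262905 in the actinomycin D series, and no member had fewer than 285 counts in any library. Cnot3 had 7.72 ± 0.562 CPM in KO total RNA, against 46.6 ± 0.659 CPM in WT total RNA (SD, n = 2 each). Levels are CPM, counts relative to library size, scaled by the trimmed mean of M values (TMM), within the 8 day 3 libraries and, separately, within the 12 libraries of the actinomycin D series, so levels of the 2 sets are not on a shared scale. The total libraries were of another kind than the rest: replication-dependent histone mRNAs, which lack poly(A) tails, took 0.666% to 1.18% of their counts and at most 0.0049% elsewhere, and reads marked as mapping to more than a single place numbered 10341991 to 15515077 in them and 0 in the other 16 libraries. Replicates differed most in WT polysomes, with a chi-square per degree of freedom of 70.8 against 1.27 to 11.2 in the other groups, and mitochondrial mRNAs took 5.02% of counts in WT polysome replicate 2. ESC markers, none of them at 0 in any group, were called lower in KO total RNA for 8 of 10 genes, with a summed 3472 to 3656 CPM in KO and 6787 to 7387 CPM in WT total RNA. Trophectoderm markers were called higher for 10 of 11 genes there, with 564.6 to 583 CPM in KO and 116.7 to 129.3 CPM in WT. Fibroblast markers summed to 66.33 to 74.2 CPM in KO and 48.9 to 52.96 CPM in WT total RNA (6 of 9 tested higher). In bulk RNA, fewer cells of a type and less RNA per cell cannot be told apart, and the part of these shifts in the results below was not tested.

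In whole-cell RNA on day 3, Pan3 and Pabpc4 mRNAs were lower in KO than in WT cells, while Pan2 and Parn mRNAs had log2 differences of -0.09 and 0.10 that did not pass. A change was called at an adjusted p under 0.05 in edgeR's quasi-likelihood test, adjusted by Benjamini-Hochberg over all genes tested. By this rule 2 of the 6 members were lower and 0 higher, where 12.2% of 18303 genes were lower and 16% higher, and the median log2 change was -0.46 for the members and 0.01 for all genes.

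Pan3, the pseudokinase that brings PAN2 to mRNA by binding PABPC and GW182 proteins, had 55.57 and 58.51 CPM in KO total RNA, against 82.83 and 82.41 CPM in WT total RNA. The groups did not overlap, and the log2 change was -0.53 ± 0.16 (SE, adjusted p = 0.0336). Pan2, the catalytic subunit, had 60.25 and 61.5 CPM in KO total RNA, against 61.33 and 67.94 CPM in WT total RNA. These values overlapped, with a log2 difference of -0.09 ± 0.13 (adjusted p = 0.655), which turned to 0.17 (adjusted p = 0.357) when libraries were scaled by their totals alone. Parn, which encodes the cap-stimulated deadenylase, had 61.21 and 61.8 CPM in KO total RNA, against 56.49 and 57.9 CPM in WT total RNA. All Parn KO values lay above all WT values, but the log2 difference of 0.10 ± 0.13 did not pass (adjusted p = 0.582).

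Pabpc1, the most abundant cytoplasmic poly(A)-binding protein mRNA, had 532.4 and 554 CPM in KO total RNA, against 759.6 and 712.7 CPM in WT total RNA. All KO values lay below all WT values, but the log2 difference of -0.44 ± 0.17 missed the threshold (adjusted p = 0.0691). Pabpc4, its inducible paralogue, had 252.4 and 271.2 CPM in KO total RNA, against 371.3 and 401.4 CPM in WT total RNA. KO cells thus held 67.8% of the WT mean (log2 change -0.56 ± 0.15, adjusted p = 0.017). Pabpn1, the nuclear protein, had 10.44 and 13.22 CPM in KO total RNA, against 17.04 and 15.87 CPM in WT total RNA, a log2 difference of -0.48 ± 0.25 (adjusted p = 0.178).

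The calls in total RNA rested on each of the 4 total libraries, although the changes were no smaller when one was left out. Leaving out WT total replicate 1, WT total replicate 2, KO total replicate 1 or KO total replicate 2 gave Pan3 log2 changes of -0.59, -0.61, -0.56 or -0.64 (adjusted p of 0.133, 0.1, 0.15 or 0.117), in that order, and Pabpc4 -0.68, -0.57, -0.57 or -0.68 (0.0695, 0.0881, 0.125 or 0.0836). Scaling by library totals gave -0.27 for Pan3 (0.235) and -0.30 for Pabpc4 (0.136), with an all-gene median log2 change of 0.28. A fit of only the 4 total libraries called 10936 genes, against 5156 in the main fit. Pabpc1 passed in DESeq2 (adjusted p = 0.00251), with RLE scaling (0.048), with no filter (0.046), in a fit of only the 4 total libraries (2.5e-05), where Pabpn1 also passed (0.00242), and when WT polysome replicate 1 or replicate 2 was left out of the shared fit (0.000945 and 0.000872), which raised the calls over all genes to 9520 and 9522 from 5156.

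**Figure D1:**
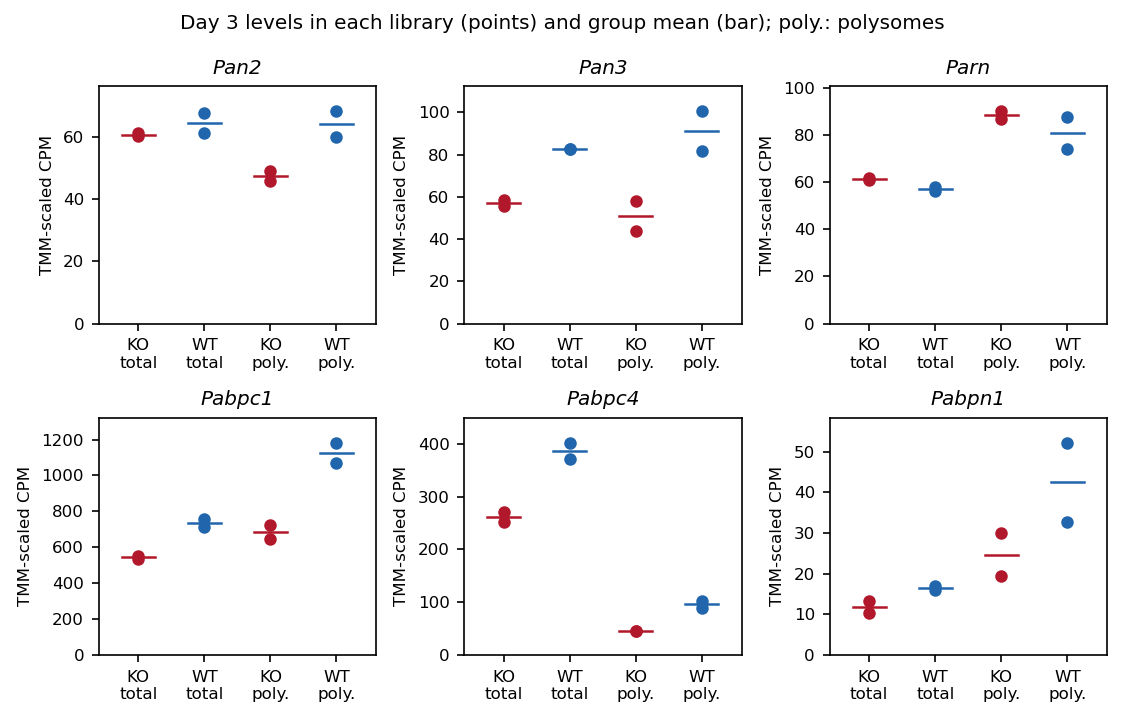
Day 3 levels of the 6 mRNAs in TMM-scaled CPM, each panel with its own axis from 0, for KO and WT total RNA and KO and WT polysomes (points, libraries; bars, means of 2). KO points lie below WT points for Pan3, Pabpc1, Pabpc4 and Pabpn1 in both fractions, and for Pan2 in polysomes. Parn KO means are slightly above WT in both, and its KO points lie above its WT points in total RNA.

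Polysome-bound mRNA of 5 members was lower in KO than in WT cells on day 3, and Parn was the member that did not pass. Against these 5 of 6 stood 21.1% of genes lower and 15.9% higher in that comparison. The median log2 change was -0.75 for the members and -0.08 for all genes. In the same libraries ESC markers summed to 3184 to 3946 CPM in KO and 6993 to 7883 CPM in WT (8 of 10 lower), and trophectoderm markers to 433.6 to 986.8 CPM in KO and 70.7 to 90.72 CPM in WT (11 of 11 higher). Fibroblast markers summed to 74.95 to 77.06 CPM in KO and 55.52 to 72.68 CPM in WT (1 of 9 tested higher), with Col3a1, Postn and Dcn at 0 in both arms.

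Pabpc4 had the lowest polysome level relative to WT, with 45.11 and 44.88 CPM in KO polysomes, against 89.06 and 102.4 CPM in WT polysomes. This is 47% of the WT mean, a log2 change of -1.09 ± 0.15 (adjusted p = 0.000469). Pan3 had 43.71 and 58.11 CPM in KO polysomes, against 81.76 and 100.4 CPM in WT polysomes, a log2 change of -0.84 ± 0.17 (adjusted p = 0.00329). Groups were apart for both mRNAs although the Pan3 replicates in KO polysomes differed 1.33-fold. Pabpc1 had 646.6 and 723.4 CPM in KO polysomes, against 1069 and 1181 CPM in WT polysomes, which gave -0.72 ± 0.17 (adjusted p = 0.00713).

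Pan2 had 46.05 and 49 CPM in KO polysomes, against 60 and 68.32 CPM in WT polysomes, and its log2 change was -0.43 ± 0.14 (adjusted p = 0.0284). Pabpn1 had 19.31 and 29.87 CPM in KO polysomes, against 32.68 and 52.11 CPM in WT polysomes. Its replicates were far apart in both arms, and the log2 change of -0.79 ± 0.25 passed narrowly (adjusted p = 0.03). Parn had 90.16 and 86.86 CPM in KO polysomes, against 87.69 and 74.15 CPM in WT polysomes. The Parn groups overlapped in polysomes, with a log2 difference of 0.13 ± 0.13 (adjusted p = 0.477).

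Pan3 and Pabpc4 stayed under the threshold with any 1 library left out, while Pabpc1 lost its call without KO polysome replicate 1 (adjusted p = 0.0791), Pan2 lost it without KO polysome replicate 1 (0.155), KO polysome replicate 2 (0.0913) or any 1 of the 4 total libraries (0.13 to 0.15), and Pabpn1 lost it without KO polysome replicate 1 (0.245), WT polysome replicate 2 (0.222) or any 1 of the total libraries (0.0658 to 0.0822). With library totals alone, where the median of all genes was 0.15, Pan2 (-0.17, adjusted p = 0.373) and Pabpn1 (-0.52, 0.131) lost their calls and Parn was called higher (0.39, 0.0391), which left 3 lower and 1 higher. Pan2 also lost its call with no filter (0.207), and Parn was called higher without WT polysome replicate 1 (0.25, 0.045), where 9406 genes were called in place of 6763.

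Whether polysome association itself changed was tested as the polysome change minus the total change. Fraction and library kind cannot be told apart in this test. None of the 6 members passed in edgeR, and none in DESeq2, where 0.0109% of genes passed in edgeR, and 1 member (Pabpc4) had an unadjusted p under 0.05. Pabpc4 stood at -0.53 ± 0.21 (adjusted p = 0.356), Pan2 at -0.35 (adjusted p = 0.463), Pabpn1 at -0.31 (0.753), Pan3 at -0.30 (0.603), Pabpc1 at -0.28 (0.643) and Parn at 0.02 (0.986). For the 5 members with lower polysome levels, this test did not separate the polysome change from the total change. Without WT polysome replicate 1, Pan2 (-0.42, adjusted p = 0.0384) and Pabpc4 (-0.60, adjusted p = 0.0047) passed, but so did 4959 genes in all, 3111 of them lower, so these 2 calls do not set the members apart.

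On day 2, at 0 h of actinomycin D, Pan2, Pan3, Pabpc1 and Pabpc4 were already lower in KO cells and Parn was slightly higher. These were 4 of 6 members lower and 1 higher, in a comparison where 32.9% of 15823 genes were lower and 29.8% higher. Markers moved in the same libraries: ESC markers summed to 3893 to 3940 CPM in KO and 5659 to 5670 CPM in WT at 0 h (9 of 10 lower, 1 higher), and trophectoderm markers to 127.2 to 130.4 CPM in KO and 49.96 to 55.12 CPM in WT (10 of 10 tested higher).

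Pabpc1 had 1741 and 1849 CPM in KO cells at 0 h, against 2439 and 2462 CPM in WT cells at 0 h, which gave a log2 change of -0.45 ± 0.04 (adjusted p = 4.81e-14). Pabpc4 had 84.17 and 91.67 CPM in KO, against 128.6 and 124.5 CPM in WT, which gave -0.53 ± 0.05 (adjusted p = 4.49e-13). KO cells at 0 h thus held 73.3% of WT Pabpc1 and 69.5% of WT Pabpc4, with no overlap between arms. For Pan3 the values were 38.33 and 37.73 CPM in KO and 50.58 and 48.41 CPM in WT (-0.38 ± 0.06, adjusted p = 3.86e-07). For Pan2 they were 86.51 and 82.04 CPM in KO and 98.69 and 95.16 CPM in WT (-0.20 ± 0.04, adjusted p = 0.000164). Pan2 was the smallest of the called decreases, and it lost its call with library totals alone (-0.05, adjusted p = 0.358).

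Parn had 81.29 and 82.76 CPM in KO, against 75.56 and 72.17 CPM in WT (0.15 ± 0.05, adjusted p = 0.00692). This call was lost without KO 0 h replicate 2 (adjusted p = 0.0574), without WT 0 h replicate 2 (0.12), under relative log expression (RLE) scaling (0.786) and in DESeq2 (0.873). Pabpn1 had 19.97 and 41.83 CPM in KO, against 29.86 and 42.8 CPM in WT, so that its KO replicates differed 2.09-fold and spanned most of the WT range (-0.24 ± 0.36, adjusted p = 0.587).

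**Figure D2:**
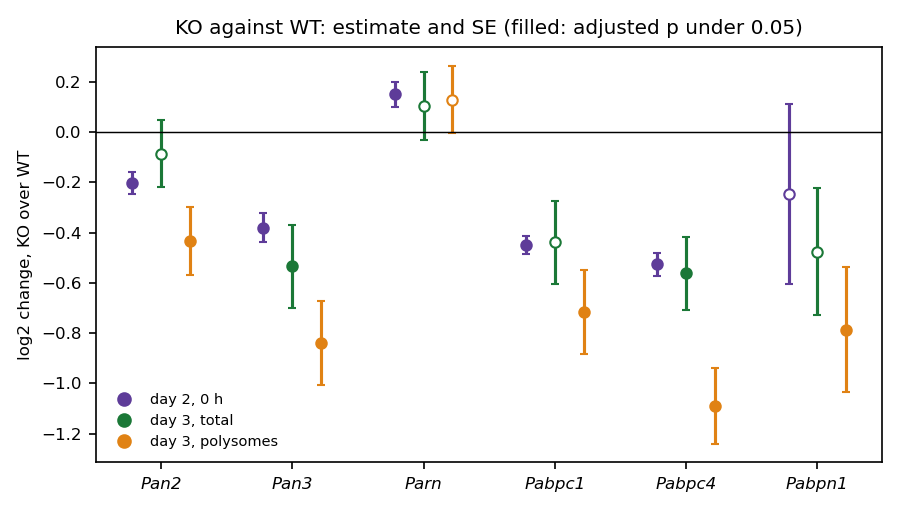
Log2 KO/WT change of each mRNA in total RNA and polysomes on day 3 and at 0 h on day 2, with the standard error of the fit; filled points have an adjusted p under 0.05. Pabpc4 runs from -1.09 in polysomes to -0.53 at 0 h, and Parn lies above 0 in the 3 comparisons.

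Changes of day 3 total RNA and day 2 RNA at 0 h were compared directly in a fit of those 8 libraries. None of the 6 members differed between the days in edgeR or DESeq2, none had an unadjusted p under 0.05, and 4.83% of all genes passed in edgeR. The differences ran from -0.20 ± 0.63 for Pabpn1 to 0.15 ± 0.08 for Pan2 on the log2 scale (adjusted p = 0.934 and 0.331). Day and library kind cannot be told apart here.

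After actinomycin D, mRNA levels were followed as slopes in log2 CPM per hour, relative to the rest of the mRNA since TMM sets the bulk near 0. A positive slope means that an mRNA became a larger share of what remained, not that it was made. By TMM, all members but Pan3 had positive slopes in both arms and Pan3 had negative ones, while scaling to ribosomal protein mRNAs turned the slopes of Pan2 and Parn in both arms, and of Pabpc1 and Pabpc4 in KO cells, to negative. Thus 5 of 6 members rose in KO cells and 1 fell, where 31.6% of genes rose and 36.3% fell. In WT cells the same 5 rose and Pan3 fell, where 35% of genes rose and 38.8% fell.

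Pabpc1 had 1741 and 1849 CPM at 0 h, 2589 and 2554 CPM at 4 h and 3080 and 3053 CPM at 8 h in KO cells, against 2439 and 2462 CPM, 4618 and 4404 CPM, and 6019 and 5898 CPM in WT cells at the same times. It reached 171% of its 0 h level in KO cells at 8 h, and 243% in WT cells. The slopes were 0.10 in KO (adjusted p = 6.02e-05) and 0.16 in WT (adjusted p = 3.97e-07). Pabpc4 had 84.17 and 91.67 CPM at 0 h, 117.5 and 115.3 CPM at 4 h and 141.7 and 140.7 CPM at 8 h in KO cells, against 128.6 and 124.5 CPM, 220.9 and 205.6 CPM, and 303.4 and 302.1 CPM in WT cells. Its share at 8 h was 161% of 0 h in KO cells and 239% in WT cells. The arms drew apart with time for both PABPC mRNAs, and KO cells held 51.5% of WT Pabpc1 and 46.6% of WT Pabpc4 at 8 h.

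Pan2 had 108 and 106.2 CPM at 4 h and 119.5 and 121.8 CPM at 8 h in KO cells, against 153.4 and 154.9 CPM at 4 h and 194 and 188.3 CPM at 8 h in WT cells. Relative to 0 h this was 143% in KO cells and 197% in WT cells at 8 h. Pan3, its partner, went the other way. It had 24.73 and 21.58 CPM at 4 h and 18.53 and 19.04 CPM at 8 h in KO cells, against 34.67 and 36.56 CPM at 4 h and 36.56 and 34.63 CPM at 8 h in WT cells. Pan3 kept 60.9% of its 0 h level at 4 h and 49.4% at 8 h in KO cells, against 72% and 71.9% in WT cells, where the 4 h and 8 h libraries overlapped. By TMM the mRNAs of the catalytic and the adaptor subunit thus moved in opposite directions after the block, whereas both slopes were negative when scaled to ribosomal protein mRNAs.

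By TMM Parn stayed near its 0 h share, with 92.33 and 89.4 CPM at 4 h and 92.54 and 95.57 CPM at 8 h in KO cells. WT cells had 86.56 and 85.91 CPM at 4 h and 85.32 and 81.4 CPM at 8 h. Its slopes of 0.02 passed in KO (adjusted p = 0.0305) and in WT (adjusted p = 0.0485). With library totals alone the WT slope was -0.02 (adjusted p = 0.0395) and the KO slope was near 0 (-0.0001, adjusted p = 0.992). Scaled to ribosomal protein mRNAs, the Parn slope was -0.0805 in KO (adjusted p = 4.04e-07) and -0.1212 in WT (5.72e-09). Pabpn1 had 42.3 and 52.36 CPM at 4 h and 58.51 and 63.58 CPM at 8 h in KO cells, against 65.39 and 51.71 CPM at 4 h and 79.09 and 90.51 CPM at 8 h in WT cells. The Pabpn1 slope was 0.12 in KO (adjusted p = 0.0194) and 0.15 in WT (adjusted p = 0.00545), and the arms overlapped at 0 and 4 h but not at 8 h. Scalings and single libraries decided some of these slope calls. Pan3 lost its calls with mitochondrial scaling (KO -0.0531, adjusted p = 0.0824, and WT -0.0419, 0.168). With ribosomal protein scaling Pabpn1 lost both calls (KO 0.0172, 0.684, and WT 0.0097, 0.813) and Pabpc4 its WT call (0.0142, 0.0512). The Parn WT call was lost with mitochondrial scaling (0.0395, 0.194), in DESeq2 (0.0612) and with no filter (0.0975). Parn lost its KO call without KO 0 h replicate 1 (adjusted p = 0.126), KO 0 h replicate 2 (0.0912) or KO 8 h replicate 2 (0.0908), and its WT call without any 1 of the 4 libraries at 0 h, KO 4 h replicate 2, either KO 8 h library or WT 8 h replicate 1 (0.0642 to 0.308). Pabpn1 lost its KO call without KO 8 h replicate 2 (0.0636).

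**Figure D3:**
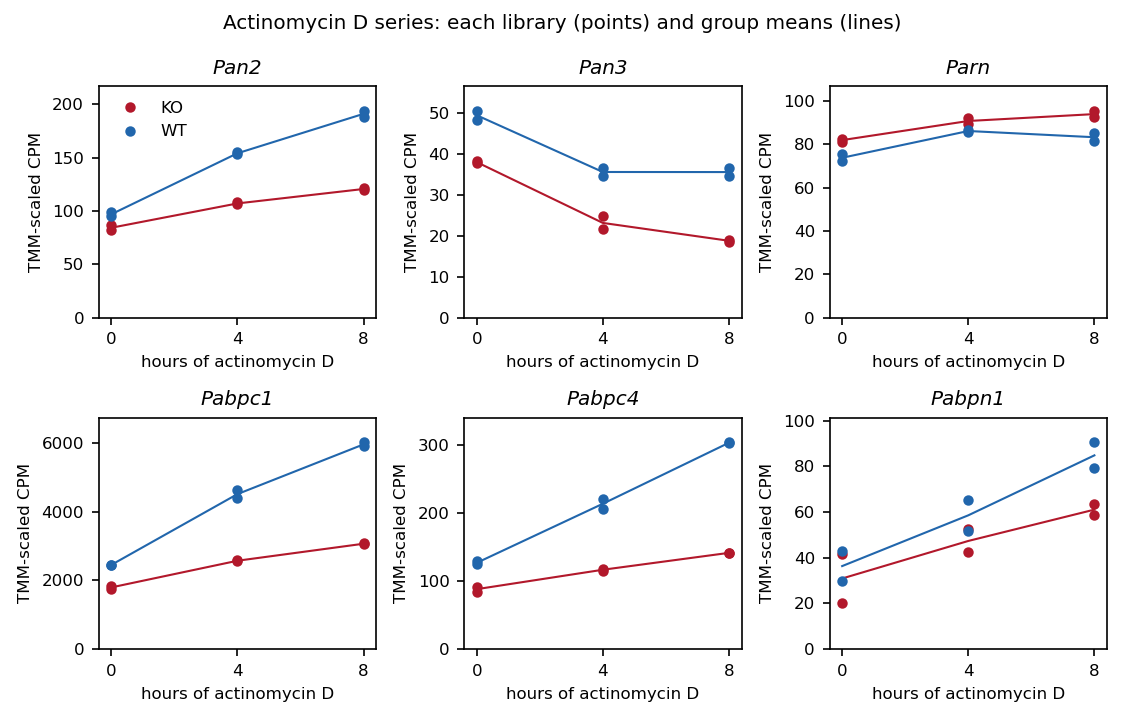
Level of each mRNA in TMM-scaled CPM at 0, 4 and 8 h of actinomycin D in KO and WT cells, each panel with its own axis from 0 (points, libraries; lines, means of 2). WT lines climb more steeply than KO lines for Pan2, Pabpc1 and Pabpc4, Pan3 declines in both arms and further in KO, and Parn is nearly flat.

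The slopes of Pan2, Pan3, Pabpc1 and Pabpc4 were lower in KO than in WT cells. The test of the difference called 4 of 6 members lower and 0 higher, where 8.78% of genes were lower and 10.2% higher, and the median difference was -0.061 per hour for the members and -0.013 for all genes. Pabpc4 differed by -0.0718 ± 0.0133 per hour (adjusted p = 0.00226), Pan2 by -0.0578 ± 0.0152 (0.0182), Pabpc1 by -0.0637 ± 0.02 (0.0408) and Pan3 by -0.068 ± 0.0215 (0.0424). Over 8 h the fitted Pabpc4 difference comes to -0.57 on the log2 scale. Parn differed by 0.0028 ± 0.0132 (adjusted p = 0.921) and Pabpn1 by -0.0299 ± 0.0544 (adjusted p = 0.771).

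Of these 4, only Pabpc4 passed with each of the 12 libraries left out in turn, with adjusted p from 0.000416 to 0.0156. Omitting a library moved the adjusted p of Pan2 to as much as 0.0837 (without WT 0 h replicate 2), of Pan3 to 0.139 (without WT 8 h replicate 1) and of Pabpc1 to 0.148 (without WT 0 h replicate 1 or replicate 2), and these calls were lost in 5, 8 and 8 of the 12 omissions: for Pan2 each 0 h library but KO replicate 2 and both KO 8 h libraries, for Pan3 each 0 h and 8 h library but WT 0 h replicate 1, together with KO 4 h replicate 1, and for Pabpc1 each 0 h library, both KO 8 h libraries, WT 8 h replicate 1 and KO 4 h replicate 2. When libraries were scaled to the mitochondrial mRNAs none of the 4 passed (Pabpc4 -0.0134, adjusted p = 0.913), with a median difference of 0.0447 over all genes, and when scaled to ribosomal protein mRNAs Pan2 (-0.0199, adjusted p = 0.057) and Pan3 (-0.0301, 0.613) lost their calls and Parn was called higher in KO (0.0407, 0.0036), among 3667 genes higher and 261 lower.

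**Figure D4:**
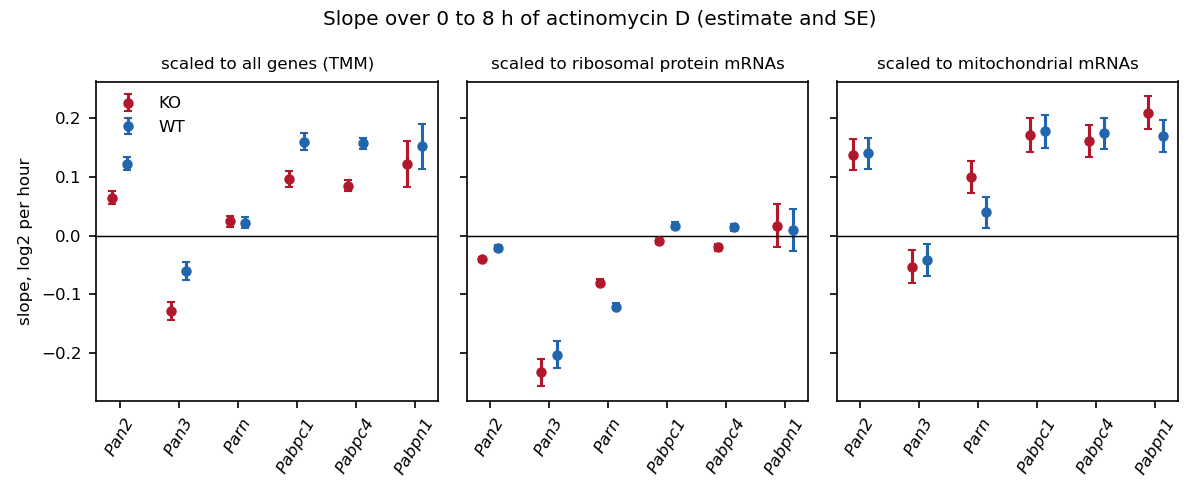
Slope of each mRNA in log2 units per hour over 0 to 8 h of actinomycin D in KO and WT cells, with standard errors, under 3 scalings. By TMM all members but Pan3 lie above 0 in both arms; with ribosomal protein mRNAs as the scale, Pan2 and Parn fall below 0 in both arms and Pabpc1 and Pabpc4 in KO.

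Per kilobase of exonic sequence, merged over all annotated transcripts of a gene, Pabpc1 was the most abundant of the 6 mRNAs in every group. In day 3 total RNA it averaged 83.1 ± 2.33 CPM per kb in KO and 113 ± 5.09 CPM per kb in WT (SD, n = 2 each), and Pabpc4 came next with 65 ± 3.3 in KO and 95.9 ± 5.29 in WT. Parn followed with 11.4 ± 0.0849 CPM per kb in KO and 10.6 ± 0.184 in WT, then Pan2 with 7.19 ± 0.104 in KO and 7.63 ± 0.552 in WT. Pan3 (3.81 ± 0.139 in KO, 5.52 ± 0.0205 in WT) and Pabpn1 (3.9 ± 0.647 in KO, 5.42 ± 0.272 in WT) overlapped at the lower end. Pan2 exceeded Pan3 per kb in all 10 group means, and after 8 h of actinomycin D it stood at 14.2 ± 0.191 CPM per kb beside 1.26 ± 0.024 for Pan3 in KO cells, and at 22.6 ± 0.474 beside 2.38 ± 0.0912 in WT cells. On day 3 this order depends on the lengths used, 8472 bases for Pan2 and 14955 for Pan3. In CPM not divided by length, Pan3 averaged more than Pan2 in WT total RNA (82.62 against 64.64) and WT polysomes (91.07 against 64.16). It also did so in KO polysomes (50.91 against 47.52), and averaged less in the other groups.

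The balance of the 2 cytoplasmic PABPs differed far more between kinds of library than between arms. Pabpc4 per kb was 0.77 and 0.795 of Pabpc1 in KO total RNA and 0.794 and 0.915 in WT total RNA. In polysomes it was 0.113 and 0.101 in KO and 0.135 and 0.141 in WT. In the actinomycin D series, also whole-cell RNA by its labels, the ratio lay between 0.0733 and 0.0856 in all 12 libraries. Accordingly Pabpc1 made up 63.5% to 66.8% of Pabpc-family counts in total libraries, 91.6% to 92.9% in polysomes and 94.8% to 95.6% in the actinomycin D series. On the day 3 scale, Pabpc4 averaged 386.4 CPM in WT total RNA and 95.73 CPM in WT polysomes, while Pabpc1 averaged 736.1 and 1125 CPM. In KO cells Pabpc4 averaged 261.8 CPM in total RNA and 45 CPM in polysomes, and Pabpc1 543.2 and 685 CPM. The part of library kind in this ratio was not tested. Pabpc1 has near-identical intronless copies, and reads shared with them may have been counted differently where multiply mapped reads were tallied. Its level in total libraries is therefore uncertain, and the part of such reads in the ratio was not tested. The annotated copies Pabpc2 and Pabpc6 had 13 and 251 counts over all 20 libraries, beside 1052110 for Pabpc1.

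**Figure D5:**
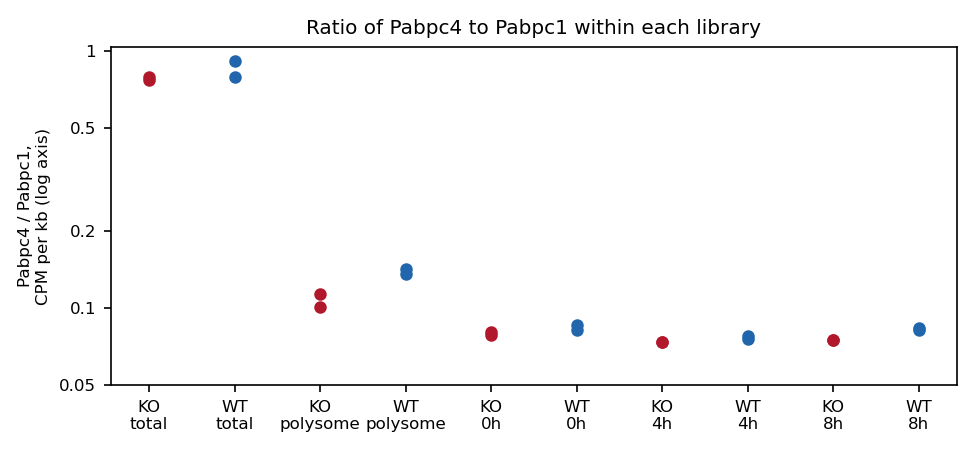
Ratio of Pabpc4 to Pabpc1 CPM per kb in each of the 20 libraries, on a log axis, by group. Total libraries lie at 0.77 to 0.915, polysome libraries at 0.101 to 0.141 and the actinomycin D series at 0.0733 to 0.0856.

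In the order of levels across groups, each within its own scale, Pabpc1, Pabpc4 and Pan2 had their highest actinomycin D level in WT at 8 h and their lowest in KO at 0 h, with no overlap between neighbours. Pan3 was highest in WT at 0 h and lowest in KO at 8 h, and its WT 4 h and 8 h values overlapped. Parn was highest in KO at 8 h and lowest in WT at 0 h, and its KO 0 h and WT 8 h values overlapped. Pabpn1 was highest in WT at 8 h, while its lower 5 groups each overlapped the next. On day 3 Pabpc4 was highest in WT total RNA and lowest in KO polysomes, whereas Pabpc1 was highest in WT polysomes and lowest in KO total RNA.

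Likeness between genes was measured as Pearson's r over 20 libraries of log2 CPM centred on the mean of each experiment, among 9228 genes. These points share library kind, depth and scaling, and no p is given. Pabpc1 and Pabpc4 ran together (r = 0.98), as did Pan2 and Pabpc1 (0.98), while Pan2 and Pan3 did not (0.10) and Pan3 and Parn ran opposite (-0.88). The most alike genes outside the members were Becn1 and Slc25a39 for Pabpc1 (both 0.99), Anapc5 and Abhd17a for Pabpc4 (both 0.99), and Irak1 and Mtch1 for Pan2 (both 0.98). Those for Pan3 were Ccnt2 and Zfp445 (both 0.98), those for Parn Strbp (0.97) and Pls1 (0.96), and those for Pabpn1 Tpt1 (0.94), itself a TOP mRNA, and Cox5a (0.93).

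Counts of other genes of poly(A) tail metabolism are to be read against the share of all genes, which was 16% higher and 12.2% lower in total RNA, 15.9% and 21.1% in polysomes, 29.8% and 32.9% at 0 h, and 10.2% and 8.78% in the slope difference, and no list was tested against it. Median log2 changes in total RNA, polysomes and at 0 h were -0.35, -0.25 and -0.38 for the CCR4-NOT deadenylases. They were -0.07, -0.09 and -0.09 for the other genes listed as deadenylases, and 0.46, 0.47 and 0.76 for other poly(A)-binding proteins. For PABPC partners they were -0.18, -0.16 and -0.17. They were 0.04, -0.29 and -0.02 for polymerases and nucleotidyltransferases, -0.19, -0.25 and -0.14 for cleavage factors, and -0.06, -0.08 and -0.08 for the exosome list, beside 0.01, -0.08 and -0.01 for all genes.

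Among the other deadenylases, the CCR4-NOT catalytic subunits Cnot6, Cnot6l, Cnot7 and Cnot8 had 2 of 4 lower and 0 higher in KO total RNA, 1 lower and 0 higher in polysomes, and 3 lower and 0 higher at 0 h. Cnot6 led with log2 changes of -0.65 ± 0.16 in total RNA (adjusted p = 0.0148), -0.78 ± 0.16 in polysomes (0.00417) and -0.67 ± 0.05 at 0 h (6.71e-16), and 1 of the 4, Cnot8, had a higher slope in KO (0.0599 ± 0.0127 per hour, 0.00558). Of 6 further genes listed as deadenylases, whose activity was not measured here, 0 were called in total RNA or polysomes by edgeR. At 0 h 2 were lower, led by the circadian enzyme Noct (-0.28 ± 0.05, adjusted p = 3.13e-05). For 2 the slope was higher in KO, led by Toe1 (0.1392 ± 0.0289, 0.0049).

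Of 7 other poly(A)-binding proteins 4 were tested, and 2 were higher and 0 lower in KO total RNA, 2 higher and 0 lower in polysomes, and 3 higher and 0 lower at 0 h. Pabpc1l, a PABPC known from oocytes, averaged 1.535 ± 0.616 CPM in KO and 0.3916 ± 0.0424 CPM in WT total RNA (log2 change 1.96 ± 0.41, adjusted p = 0.00658) and 2.386 ± 0.727 CPM in KO and 0.6428 ± 0.0912 CPM in WT polysomes (1.88 ± 0.42, 0.00576), which is far below Pabpc1. Zc3h14, a nuclear zinc-finger poly(A)-binding protein, averaged 115 ± 3.62 CPM in KO and 84.61 ± 3.99 CPM in WT at 0 h (0.44 ± 0.05, 4.72e-10), and its slope was higher in KO by 0.0685 ± 0.0181 (0.0189).

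The 17 partners of cytoplasmic PABP, which bridge it to translation, release and silencing factors, had 1 higher and 4 lower in KO total RNA, 0 and 3 in polysomes, and 2 and 9 at 0 h. Larp1, which binds TOP starts and PABPC1, averaged 399.1 ± 7.71 CPM in KO and 632 ± 28.6 CPM in WT at 0 h (log2 change -0.66 ± 0.04, adjusted p = 4.79e-18). Tnrc6c, a GW182 protein through which PAN3 is recruited, averaged 62.94 ± 4.21 CPM in KO and 117.6 ± 5.49 CPM in WT total RNA (-0.90 ± 0.18, 0.00466) and changed by -0.92 ± 0.18 in polysomes (0.00286). Eif4g3 was higher in total RNA (1.16 ± 0.25, 0.00807) and Atxn2 at 0 h (0.63 ± 0.05, 6.22e-13). In the slope difference 3 were higher, led by Larp4 (0.1235 ± 0.0133, 3.61e-05), and 2 lower, led by Paip2b (-0.0551 ± 0.0117, 0.00568).

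Of 13 tested poly(A) polymerases and terminal nucleotidyltransferases, 2 were higher and 2 lower in KO total RNA, 2 and 4 in polysomes, and 4 and 5 at 0 h. The canonical polymerase Papola was lower at 0 h (log2 change -0.37 ± 0.04, adjusted p = 4.97e-11) and the uridylyltransferase Tut4 higher (0.37 ± 0.05, 1.53e-08). Tent4a was lower in total RNA (-0.54 ± 0.14, 0.0143) and polysomes (-0.58 ± 0.14, 0.0071), Tent5c was higher in total RNA (0.71 ± 0.21, 0.0319) and Tent5a in polysomes (0.90 ± 0.27, 0.024). Slopes were higher in KO for 4 and lower for 0, led by the mitochondrial polymerase Mtpap (0.0866 ± 0.014, 0.000888).

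Of 17 cleavage and polyadenylation factors, 0 were higher and 2 lower in KO total RNA, 1 and 6 in polysomes, and 2 and 11 at 0 h. Pcf11, the termination factor, was lower in polysomes (log2 change -0.9999 ± 0.1628, adjusted p = 0.00118) and at 0 h (-0.54 ± 0.05, 3.78e-12), and Cpsf6 in total RNA (-0.72 ± 0.15, 0.00697). Fip1l1, which links the cleavage complex to the polymerase, was higher in polysomes (0.55 ± 0.16, 0.0206) and at 0 h (0.21 ± 0.05, 1e-04). Its slope was higher in KO by 0.1505 ± 0.0135 (8.66e-06), and in all 5 slopes were higher and 2 lower, with Sympk the lower of smallest adjusted p (-0.0591 ± 0.0158, 0.0199).

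Of 14 tested genes of the nuclear exosome and its poly(A) RNA adaptors, 0 were called in total RNA, 1 was higher and 1 lower in polysomes, and 2 were higher and 6 lower at 0 h. Rbm7 was higher in polysomes (log2 change 0.50 ± 0.15, adjusted p = 0.0253) and at 0 h (0.31 ± 0.05, 2.72e-06), Zfc3h1 lower in polysomes (-0.68 ± 0.20, 0.0224) and Exosc4 lower at 0 h (-0.27 ± 0.06, 0.000216). Slopes were higher in KO for 6 and lower for 0, led by Exosc4 (0.1831 ± 0.0203, 4.4e-05).

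The 17 other 5′ TOP mRNAs had 4 lower and 0 higher in KO total RNA (median log2 change -0.43), 4 lower and 1 higher in polysomes (median -0.34) and 14 lower and 1 higher at 0 h (median -0.34). Eef1a1 was lower at 0 h (log2 change -0.40 ± 0.03, adjusted p = 3.54e-13), Nap1l1 in total RNA (-0.63 ± 0.17, 0.0188) and Hnrnpa1 in polysomes (-0.96 ± 0.16, 0.00145), while Vim was higher in polysomes (0.78 ± 0.16, 0.00425) and at 0 h (0.17 ± 0.05, 0.00353). After actinomycin D, 31.6% of all genes rose by TMM and 36.3% fell in KO cells, and 35% rose and 38.8% fell in WT cells. All 17 other TOP mRNAs rose in KO cells (median 0.0941 per hour), and 15 rose and 1 fell in WT cells (median 0.1007 per hour). Their slopes differed between arms for 3, with Eif4b higher in KO (0.1565 ± 0.0214, 0.000231) and Eef2 lower (-0.0531 ± 0.0168, 0.0419), and with a median difference of -0.0134 beside -0.0637 for Pabpc1.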

How the data were processed

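The deposited files held raw counts of reads per gene for 20 libraries. Per the submitters' processing notes, STAR 2.3.0e, the mm9 build and HTSeq were used by the authors. No source used here gives HTSeq's version, its strand setting or any poly(A) selection. Libraries were made with an Illumina TruSeq kit, per the labels' design text. Rows that name no gene were kept out of library sizes; reads outside genes were 14.8% to 19.0% of all tallied reads in total libraries, 4.75% to 12.9% in polysomes and 5.26% to 8.12% in the actinomycin D series. Symbols came from GENCODE M21 by gene ID (32938 of 37991 IDs).

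Counts were fitted with edgeR 4.0.16 in R 4.3.3 (TMM, robust quasi-likelihood, genes filtered by filterByExpr at a minimum count of 10), separately for 8 day 3 libraries, 12 actinomycin D libraries and, for the day comparison, 8 total and 0 h libraries. P values were adjusted by Benjamini-Hochberg over all genes, with a threshold of 0.05. Slopes were linear in hours within each arm. The procedure was tested on simulated counts. Alternatives were DESeq2 1.42.0, RLE or library-total scaling, 2 other filters on low counts (none, or 1 CPM), a replicate block, smaller fits, time as a factor, omission of each library, and scaling to mitochondrial mRNAs or ribosomal protein mRNAs. Named genes were the 6 members, per list the gene of smallest adjusted p in each direction in total RNA, polysomes, 0 h and the slope difference, and the 2 most alike genes per member. Members and lists were chosen with earlier results of these data known. The main fits did not pair samples by replicate number, although same-numbered libraries had correlated deviations of up to 0.26 on day 3. With 2 replicates per group, each p-value rests on a spread shared by all groups of its fit and drawn toward that of other genes. In the day 3 fit, tests of total RNA thus also carry the spread of the polysome libraries.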

Additional observations from a re-analysis of the deposited data

Results flagged for a closer look

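For 4 members the slope after actinomycin D differed between KO and WT cells by the test of arm and time together, and each slope was lower in KO. Over all genes, 8.78% were lower and 10.2% higher in this test. Only Pabpc4 passed with each library left out in turn, and 0 members passed with mitochondrial scaling. The slope difference, KO minus WT, in log2 units per hour was -0.0718 for Pabpc4, -0.068 for Pan3, -0.0637 for Pabpc1 and -0.0578 for Pan2. In Pan2, Pabpc1 and Pabpc4 the KO slope was the smaller of 2 positive slopes, and in Pan3 it was the steeper of 2 negative slopes. Groups of 2 libraries are too small to single out an outlying sample.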

How the results depend on the processing

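Of 840 member values under alternatives, 699 kept their direction and side of the threshold, 94 fell short of it, 12 newly passed and 35 turned sign. Leaving out 1 library gave 0 to 3 members called in total RNA, 2 to 6 in polysomes, 0 to 2 in association, 4 to 5 at 0 h, 5 to 6 for the WT slope, 4 to 6 for the KO slope, 1 to 4 for the slope difference and 0 between days; the cause was not tested. With library totals alone, 0 members were called in total RNA, where 85.1% of called genes were higher (56.8% by TMM), and 1 in the slope difference (78.4%, against 53.7%). A fit of only the 4 libraries compared called 4 members in total RNA, among 10936 genes called (5156 in the main fit). In polysomes it called 2 members, among 3287 genes (6763 in the main fit). The slope difference had 1 call with RLE scaling, 2 in DESeq2, 2 with the replicate block and 0 with mitochondrial scaling, where 1846 genes were higher and 9 lower. With the replicate block Pan3 and Pabpc1 had an adjusted p of 0.0608 and 0.062 in it and Parn 0.0604 for the WT slope, and no other member's call changed. Same-numbered libraries had correlated deviations of -0.03 to 0.26 on day 3 and -0.04 to 0.03 in the actinomycin D series.

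Sign changes with library totals alone were Pan2 in total RNA (0.17), the Parn slope in WT (-0.02, adjusted p = 0.0395) and in KO (-1e-04), and Parn (0.06) and Pabpc4 (0.0721) between days. Scaling to ribosomal protein mRNAs, which puts the median slope of all genes at -0.1492 in WT and -0.1075 in KO, turned the slopes of Pan2 (KO -0.0405, WT -0.0206), Parn (KO -0.0805, WT -0.1212), Pabpc1 (KO -0.0087) and Pabpc4 (KO -0.0198), and the Pabpn1 slope difference (0.0075), which mitochondrial scaling also turned (0.04). Between days, where no member was called, Pabpc1 turned to -0.0019 with RLE, -0.039 with no filter and -0.0054 in DESeq2, Pabpc4 to 0.0212 with the 1 CPM filter and 0.0008 with the block, and Parn to 0.0106 with the 1 CPM filter.

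With 1 library left out, uncalled values spanned 0 for Pan2 (-0.0118 to 0.1774), Parn (-0.1184 to 0.0101), Pabpc1 (-0.0821 to 0.0753), Pabpc4 (-0.1444 to 0.0479) and Pabpn1 (-0.65 to 0.41) between days, for Pabpn1 (-0.64 to 0.10) and Parn (-0.059 to 0.2048) in association, for Pabpn1 at 0 h (-0.87 to 0.19), and for Pabpn1 (-0.0801 to 0.0292) and Parn (-0.0052 to 0.0118) in the slope difference. Over all genes, calls moved by over 1.5 times for total RNA (5156; 10936 in the 4-library fit), polysomes (6763; 3287), association (2; 40 with no filter, 55 in DESeq2), the slope difference (3003; 6714 with time as a factor, 1855 with mitochondrial scaling) and days (921; 1582 with no filter, 422 in DESeq2). With 1 library left out they ran from 1289 to 9522 in total RNA, 3480 to 9406 in polysomes, 0 to 4959 in association, 1748 to 3680 in the slope difference and 434 to 1664 between days.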
